A study of Mus musculus with 24 samples.

Results

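The Hsd3b genes and the other steroid enzymes of the mouse liver were followed as 10 genes: Hsd3b2, Hsd3b3, Hsd3b5, Hsd3b6, Cyp17a1, Hsd17b2, Hsd11b1, Akr1d1, Akr1c6 and Srd5a1. They were found by their symbol among the 37074 feature names of the array design and are measured by 15 probes. The genes were put together with the results of fasting already known, so their differences between fasted and fed mice are given as a description, without a test. There were 4 groups of 6 mice, all C57Bl/6J wild-type males given chow and aged 8 weeks. Mice of the fasted group had no food for 24 hours. Fed mice had chow and drank for 24 hours tap water with 20% fructose, tap water with 20% glucose, or plain tap water. All mice were killed at ZT16 (zeitgeber time, in hours from lights on), and each mouse gave 1 single-colour Agilent array. No transgenic or knockout mice were among them, and no females were studied.

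Values are log2 levels: the processed spot signal after subtraction of the array's 75th percentile, both on the log2 scale, so a level of 0 is the signal that 75% of the array's probes do not exceed. Levels of different probes are not comparable with each other, and comparisons below are between mice for the same probe. Every member probe was well above background on all 24 arrays, so the filter on dim probes, which kept 36231 of 56605 probes, removed none of them. Between 32519 and 36274 probes per array were well above background, and correlations between arrays within a group, across probes, were 0.984 or higher. All 8 hepatocyte markers, Alb and Ttr among them, were above background on all 24 arrays. Of the markers of adrenal or gonadal steroid cells, 8 of 9 were on the array. Of these 8, 4 were above background on all 24 arrays, Hsd3b1 on 23, and Cyp11a1, Cyp11b1 and Cyp11b2 on none. The summed linear level of the 8 lay at 2.61 to 4.19 in fasted mice, 2.92 to 5.52 with fructose, 3.68 to 6.66 with glucose and 4.31 to 10.9 with water. Of 5 kidney tubule markers, 2 were above background on all 24 arrays, Umod on 3, Kap on 1 and Slc12a1 on none.

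Steroid hormones are made in the adrenal gland and the gonads, and the liver is a main site of their reduction, reactivation and clearance. The 3-beta-hydroxysteroid dehydrogenases of the Hsd3b family oxidise the 3-hydroxyl group of steroids and move the neighbouring double bond, but mouse Hsd3b5 works as a 3-ketosteroid reductase and is known as an enzyme of the male liver. Other enzymes act on the hormones themselves: Srd5a1 (5-alpha) and Akr1d1 (5-beta) reduce the A ring, Akr1c6 and Hsd17b2 interconvert the keto and hydroxyl forms at the 17 position, and Hsd11b1 regenerates active glucocorticoid.

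The Hsd3b genes lie side by side on chromosome 3, and 2 sets of their sequences were compared. The first set is the probes, which were compared only with each other. The probe of Hsd3b5 (A_55_P2111980, mm9 chr3:98422576-98422635, minus strand) shares a run of 23 bases with a probe of its neighbour Hsd3b4 (A_55_P1969665, mm9 chr3:98303020-98303079, minus strand). The shared run is in capitals within 30 bases of each probe.
Hsd3b5: ttgATACCTTTATGAAGCTCAAAGAAcaat
Hsd3b4: cccATACCTTTATGAAGCTCAAAGAAaaga
No other pair of probes from different genes of the family shares more than 7 bases in a row. The member probes start at different positions of their transcripts, so short shared runs do not show how alike the transcripts are. The probes of Hsd3b3 (A_52_P459818, mm9 chr3:98546284-98546343, minus strand) and Hsd3b6 (A_52_P253567, mm9 chr3:98610436-98610495, minus strand), whose values are set against each other below, are shown whole.
Hsd3b3: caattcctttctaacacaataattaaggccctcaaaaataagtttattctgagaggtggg
Hsd3b6: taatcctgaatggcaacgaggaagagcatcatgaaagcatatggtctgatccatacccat
Transcript sequences were not used here, so whether a probe also binds the transcript of another family member was not tested. An mm9 gene annotation was not used either, and no exon or UTR is assigned to the probes.

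The second set is promoters, because Hsd3b5, with the widest difference of the family in fasted mice, and Hsd3b3, with a much smaller one, have similar upstream sequence. RefSeq promoters (GRCm38.p6) were found for 8 of the 10 genes, 9 promoters in all. Over the 250 bases before the start site, Hsd3b3 and Hsd3b5 aligned over 203 columns with 153 identical bases (75.4%). The aligned bases lay at -200 to -1 from the Hsd3b3 start site and at -250 to -48 from that of Hsd3b5. The shared stretch thus ends farther from the start site in Hsd3b5. A second Hsd3b3 promoter, also among the 9, matched the first at 248 of 249 aligned bases. It aligned with Hsd3b5 over 202 columns with 151 identical bases. All other pairs of promoters from different genes of the family aligned over at most 38 columns. Runs of at least 8 identical bases, 61 bases in all, are in capitals. Hsd3b3 is GRCm38.p6 chr3:98762411-98762660 and Hsd3b5 is GRCm38.p6 chr3:98645535-98645784, both on the minus strand.
Hsd3b3: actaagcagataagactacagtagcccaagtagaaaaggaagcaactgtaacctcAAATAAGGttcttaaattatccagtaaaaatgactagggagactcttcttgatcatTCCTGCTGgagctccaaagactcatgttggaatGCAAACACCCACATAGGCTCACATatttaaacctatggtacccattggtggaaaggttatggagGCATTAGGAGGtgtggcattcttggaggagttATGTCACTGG
Hsd3b5: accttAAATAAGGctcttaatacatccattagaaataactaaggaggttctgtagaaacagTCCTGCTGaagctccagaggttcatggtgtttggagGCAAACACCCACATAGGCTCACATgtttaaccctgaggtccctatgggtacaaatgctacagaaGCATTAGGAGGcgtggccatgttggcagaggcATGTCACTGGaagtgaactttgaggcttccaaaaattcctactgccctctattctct
On either strand, the letters TTCNNNGAA (the STAT5 type) and CACGTG (an E-box) were found in 0 of the 9 promoters. Among all 32851 RefSeq promoters of the same length, 7.02% held the STAT5 type and 6.02% the E-box. TATAAA was found in 1 of the 9, that of Akr1c6, and in 12.4% of all promoters. These are matches of letters within a short window and show no binding.

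Hsd3b5 had the widest difference of the 15 probes. Its log2 level was -2.05 at the lowest, 0.05 at the median and 1.88 at the highest in fasted mice, against 5.28, 5.59 and 5.80 in fed mice on water. No fasted mouse came near a fed mouse, since the 18 fed mice of all 3 drinks lay between 5.21 and 5.80. The mean was 53.4-fold lower in fasted mice than in fed mice on water (log2 difference -5.74 ± 0.38, SE of the fit, 95% interval -6.53 to -4.95, n = 6 each). The fit pools the spread of the 4 groups, while the SD was 1.35 in fasted mice and 0.21 on water. This SE and interval therefore understate the spread of the fasted mice. Probes of Hsd3b4, which shares the 23-base run, were not well above background on any fasted array, and on few fed ones. Over all groups, A_55_P1969665 was well above background on 3 arrays, A_52_P548963 on 2 and A_66_P119820 on 0. On water the counts were 0, 1 and 0 arrays in that order, so no difference of Hsd3b4 with fasting is read from these probes.

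**Figure D1:**
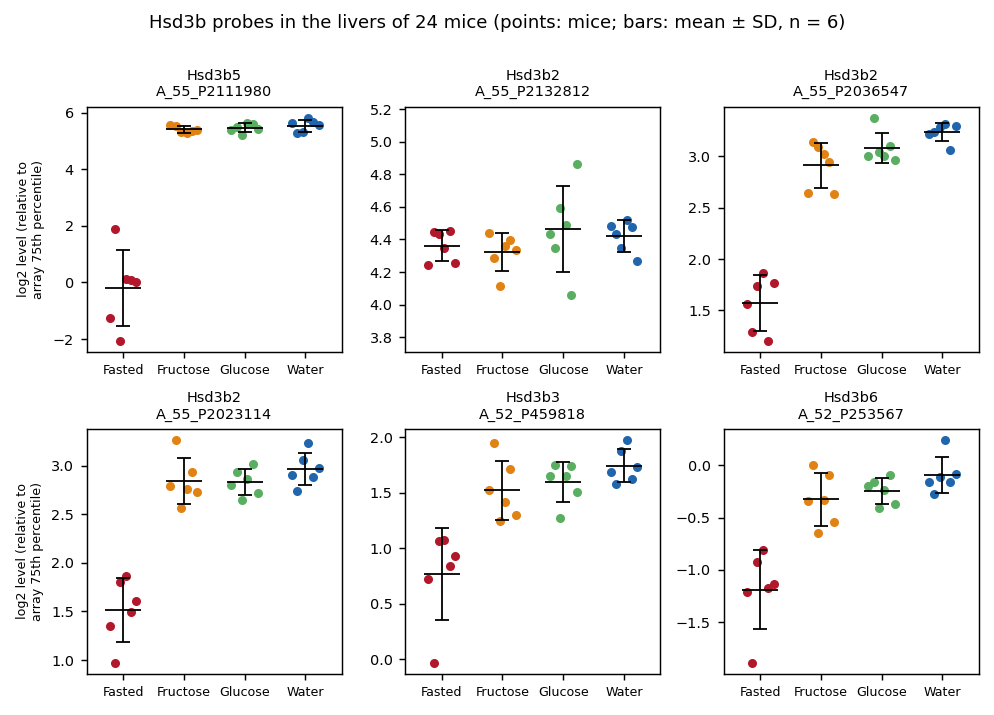
Log2 level (y axis, relative to the array's 75th percentile) of the 6 Hsd3b probes in fasted mice and in fed mice on fructose, glucose or water (x axis). Points are mice, and bars are the mean ± SD of 6 mice. Fasted Hsd3b5 levels run from -2.05 to 1.88 and fed ones from 5.21 to 5.80, while the Hsd3b2 probe A_55_P2132812 stays between 4.06 and 4.86 in all groups.

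Hsd3b2, Hsd3b3 and Hsd3b6 had smaller differences in the same direction. Hsd3b3 had log2 levels of -0.03, 0.89 and 1.08 (lowest, median, highest) in fasted mice, against 1.58, 1.71 and 1.97 in fed mice on water. Hsd3b6 had -1.89, -1.15 and -0.81 in fasted mice, against -0.27, -0.13 and 0.24 on water. Neither gene's fasted mice overlapped those on water, and the means were 1.97-fold lower for Hsd3b3 (-0.98 ± 0.15) and 2.14-fold lower for Hsd3b6 (-1.10 ± 0.14). So Hsd3b3, whose upstream sequence resembles that of Hsd3b5, had a log2 difference of -0.98 where that of Hsd3b5 was -5.74.

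The 3 probes of Hsd3b2 did not give the same answer. Probe A_55_P2023114 had 0.97, 1.55 and 1.87 (lowest, median, highest) in fasted mice, against 2.74, 2.94 and 3.24 on water. Probe A_55_P2036547 had 1.21, 1.65 and 1.86 in fasted mice, against 3.06, 3.26 and 3.31 on water. Both were lower in every fasted mouse, by 2.73-fold (-1.45 ± 0.13) and 3.16-fold (-1.66 ± 0.11). The probe A_55_P2132812, placed by the design on another transcript of the locus, overlapped between the groups, with 4.24, 4.39 and 4.45 in fasted mice and 4.27, 4.45 and 4.52 on water (-0.06 ± 0.09). On mm9 the 3 probes start at 98515703, 98515054 and 98513725 of chromosome 3, in that order.

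Cyp17a1, the hydroxylase and lyase that turns progestins into androgen precursors, was the member that ran the other way. It had log2 levels of 2.19, 2.97 and 3.81 (lowest, median, highest) in fasted mice, against 1.39, 1.60 and 1.82 in fed mice on water. Every fasted mouse was above every fed mouse, and the mean was 2.60-fold higher in fasted mice (1.38 ± 0.20). The spread also differed: the SD was 0.68 in fasted mice, against 0.08 with fructose, 0.04 with glucose and 0.17 with water. The SE of the fit pools these spreads and so understates that of the fasted mice.

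Srd5a1, the steroid 5-alpha reductase, was lower in fasted mice on all 3 probes, with differences of unequal size. Its brightest probe (A_51_P420415) had 2.91, 3.74 and 4.47 in fasted mice, against 5.01, 5.15 and 5.54 on water, and was 2.82-fold lower (-1.50 ± 0.18). The probes A_52_P562612 and A_52_P577084 were lower by 1.54-fold (-0.63 ± 0.14) and 2.39-fold (-1.26 ± 0.39), and on both a fasted mouse overlapped a mouse on water. Akr1d1, the 5-beta reductase that also serves bile acid synthesis, overlapped between fasted mice and mice on water on both probes. Its differences had opposite signs, 0.30 ± 0.15 for A_66_P114758 and -0.11 ± 0.14 for A_66_P113096.

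Akr1c6, a 17-beta-hydroxysteroid dehydrogenase of the mouse liver, had 7.75, 8.07 and 8.11 in fasted mice, against 8.68, 8.76 and 8.85 on water. Hsd17b2, which oxidises estradiol and testosterone, had 3.76, 3.84 and 3.95 in fasted mice, against 4.40, 4.51 and 4.75 on water. The groups did not overlap for either gene, and the means were 1.67-fold lower for Akr1c6 (-0.74 ± 0.07) and 1.63-fold lower for Hsd17b2 (-0.71 ± 0.13). Hsd11b1 overlapped, with 6.81, 6.84 and 6.94 in fasted mice and 6.88, 7.07 and 7.19 on water (-0.20 ± 0.07). Its fasted mice were close together, with an SD of 0.05 against 0.13 on water.

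**Figure D2:**
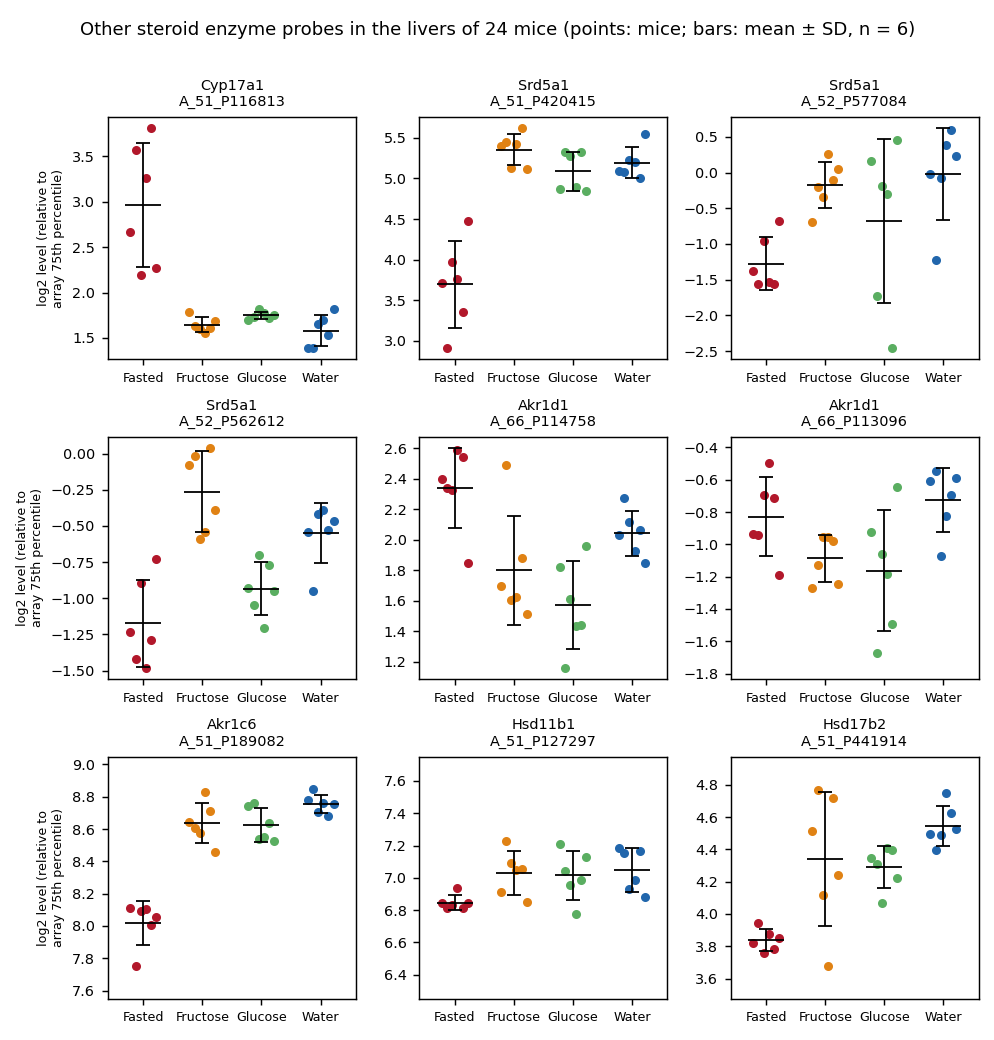
Log2 level (y axis, relative to the array's 75th percentile) of the 9 probes of the other 6 genes in fasted mice and in fed mice on fructose, glucose or water (x axis). Points are mice, and bars are the mean ± SD of 6 mice. Cyp17a1 lies at 2.19 to 3.81 in fasted mice, above all fed mice, while Srd5a1, Akr1c6 and Hsd17b2 have lower means in fasted mice than in any fed group.

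At an adjusted p under 0.05 in the limma fit over all probes, 1 member probe was higher and 11 were lower in fasted mice, where 20.7% and 21.4% of all kept probes were, 42.1% together. The groups did not overlap for 1 higher and 8 lower member probes, where 11.7% and 12.0% of kept probes had no overlap in those directions. Since the genes were chosen by this difference, the counts only describe them. Their median difference was -0.74, beside 0.01 over all kept probes. In whole liver, fewer cells of a type and less RNA per cell cannot be told apart. Summed periportal markers (such as Pck1 and Sds) lay at 1599 to 1826 in fasted mice, against 1042 to 1318 on water, with 5 of 6 markers higher and 1 lower. Summed pericentral markers lay at 972.6 to 1079 in fasted mice, against 797.04 to 951.5 on water, but the 7 markers went both ways: Oat was higher, Cyp1a2, Lgr5 and Glul were lower, and 3 were not called, Cyp2e1 among them. Cholangiocyte markers had sums of 2.37 to 6.42 in fasted mice, against 4.78 to 7.91 on water, with 3 of 5 markers lower (median -0.58). Stellate cell sums were 55.2 to 66.6 in fasted mice, against 44.2 to 64.9 on water, with 3 of 5 markers lower and 1 higher (median -1.03). Endothelial sums were 13.1 to 16.9 in fasted mice, against 12.7 to 15.6 on water, with 3 of 5 markers higher and 1 lower. Kupffer cell sums were 47.1 to 75.5 in fasted mice, against 41.7 to 60.0 on water, with 2 of 5 markers higher. The part of these markers, and of the adrenal or gonadal ones, in the members' differences was not tested.

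Sugar in the drinking water was tested on the basis that fasting was the difference that chose the genes, and no member passed. The genes are compared over all 4 groups, so whether the sugar comparisons also played a part in the choice is not known. With limma's test adjusted over all kept probes, 0 of 15 member probes were called for fructose against water, where 0.883% of kept probes were called, and 0 of 15 for glucose against water, where 0.811% were. An unadjusted p under 0.05 was reached by 2 probes with fructose and 3 with glucose. Both comparisons share the 6 mice on water, so their values are set side by side without a test between them. Mean differences were below 0 for 12 of 15 probes with fructose and for 13 of 15 with glucose, with medians of -0.13 and -0.15, beside -0.01 and -0.001 over all kept probes.

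The Hsd3b5 probe differed from water by -0.13 with fructose (95% interval -0.91 to 0.66, adjusted p = 0.920) and by -0.08 with glucose (-0.86 to 0.71, adjusted p = 0.976). These intervals allow differences of up to about 1 log2 unit, because the fit pools the spread of the fasted mice. Its SD was 0.12 with fructose, 0.16 with glucose and 0.21 with water. Akr1d1 had the lowest adjusted p of the members with glucose. Its probes differed by -0.44 (A_66_P113096, adjusted p = 0.185) and -0.47 (A_66_P114758, adjusted p = 0.186) with glucose, beside -0.36 (adjusted p = 0.216) and -0.24 (adjusted p = 0.486) with fructose. Srd5a1 probe A_52_P562612 differed by -0.39 with glucose (limma adjusted p = 0.251) and by 0.29 with fructose (limma adjusted p = 0.326). Hsd3b2 probe A_55_P2036547 differed by -0.32 with fructose (adjusted p = 0.156) and -0.15 with glucose (adjusted p = 0.679). None of these passed the threshold.

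Between the sugars, 0 of 36231 probes were called by limma, and so 0 of 15 member probes (0% of kept probes). Srd5a1 probe A_52_P562612 was the member with an unadjusted p under 0.05. Its log2 level was -0.59, -0.23 and 0.04 (lowest, median, highest) with fructose, against -1.21, -0.94 and -0.70 with glucose. The groups did not overlap, as for 0.403% of kept probes in that direction, and the difference was 0.67 ± 0.14 (95% interval 0.38 to 0.96, adjusted p = 0.223). The brighter Srd5a1 probe A_51_P420415 overlapped between the sugars, with a difference of 0.27 ± 0.18 (adjusted p = 0.732). So did A_52_P577084, with a difference of 0.50 ± 0.39 (limma adjusted p = 0.772).

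**Figure D3:**
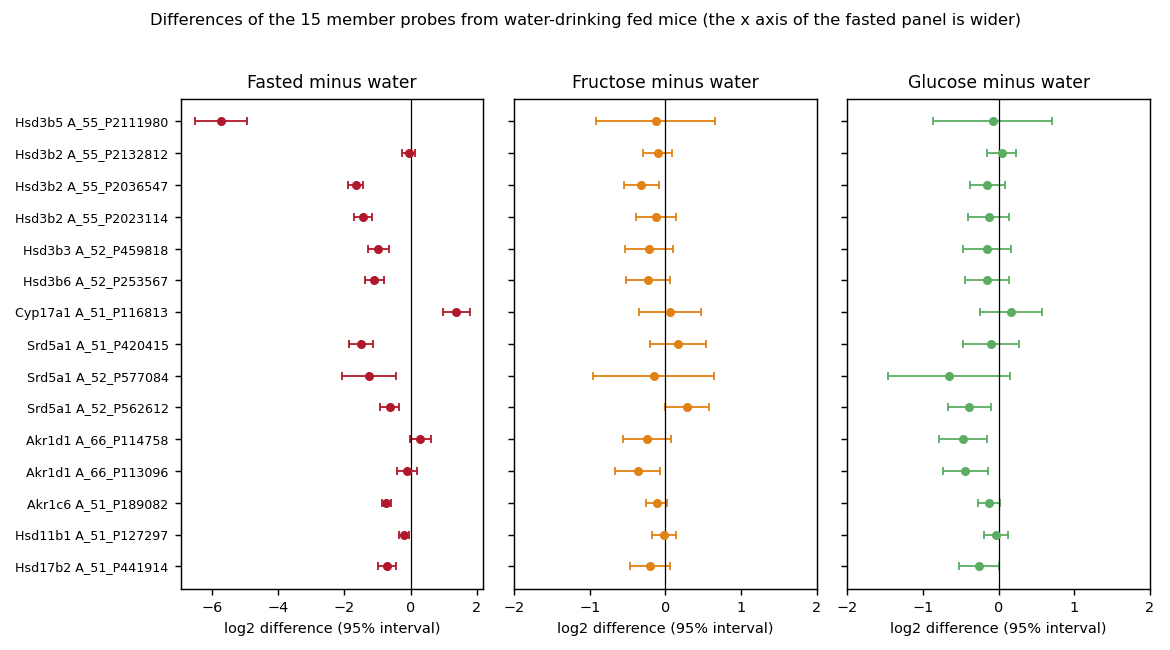
Log2 difference from fed mice on water (x axis, with 95% intervals of the limma fit) for each of the 15 member probes (rows), in fasted mice and in fed mice on fructose or glucose (panels, n = 6 per group). The fasted panel has a wider axis, on which Hsd3b5 lies at -5.74 and Cyp17a1 at 1.38. In the sugar panels, differences lie between -0.66 and 0.29.

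Mice of the same group also differed among themselves, and over the fed mice 3 Hsd3b genes varied together, with Hsd17b2 at lower correlations to each of them. Deviations from the group means were correlated over the 18 fed mice for 98 pairs of member probes of different genes. The p-values are from 100000 two-sided permutations within groups and are adjusted over the 98 pairs. Hsd3b2 (probe A_55_P2023114) and Hsd3b3 correlated at r = 0.948 (rho = 0.959), Hsd3b2 and Hsd3b6 at r = 0.932 (rho = 0.924), and Hsd3b3 and Hsd3b6 at r = 0.922 (rho = 0.915). Each had a permutation p of 1e-05 for both measures, the smallest that these permutations give, and an adjusted p of 0.000327. A fed mouse with a high level of one of these genes had a high level of the other 2.

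The same held in the other settings tried. Without the 2 mice farthest from the median of the first-named gene of a pair, r was 0.919, 0.893 and 0.923 for the 3 pairs in that order. With the slide means also removed, r was 0.965, 0.949 and 0.926, and within single slides, 6 fed mice each, it ran from 0.898 to 0.995. Over the 6 fasted mice, r was 0.957, 0.969 and 0.984, and the mice had the same order for all 3 genes (rho = 1, exact permutation p = 0.00278, adjusted p = 0.0907, which did not pass). The exact permutation p for r was 0.00139 for each pair (adjusted p = 0.0454), the smallest that the 720 orders give. Without the 2 fasted mice farthest from the median of the first-named gene, r was 0.998, 0.942 and 0.920.

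Among the 36230 other kept probes, the probe of Hsd3b3 correlated best with Hsd3b2 A_55_P2023114 over the fed mice, and that of Hsd3b6 was next. Seen from Hsd3b6, Hsd3b2 and Hsd3b3 were likewise at ranks 1 and 2. The second Hsd3b2 probe stood apart. A_55_P2036547 correlated with A_55_P2023114 of the same gene at r = 0.386 in fed mice and 0.748 in fasted mice. With Hsd3b3 its fed r was 0.414 (rho = 0.412, permutation p = 0.175 and 0.135), and with Hsd3b6 0.362 (rho = 0.439, permutation p = 0.237 and 0.113). So the tie of Hsd3b2 to the other genes rests on 1 of its probes, and cross-binding between the copies was not tested. The number of probes above background on an array correlated with Hsd3b2 A_55_P2023114, Hsd3b3 and Hsd3b6 at -0.10, -0.14 and -0.21 over the fed mice and at -0.40, -0.55 and -0.56 over the fasted mice. Its part in these correlations was not tested.

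**Figure D4:**
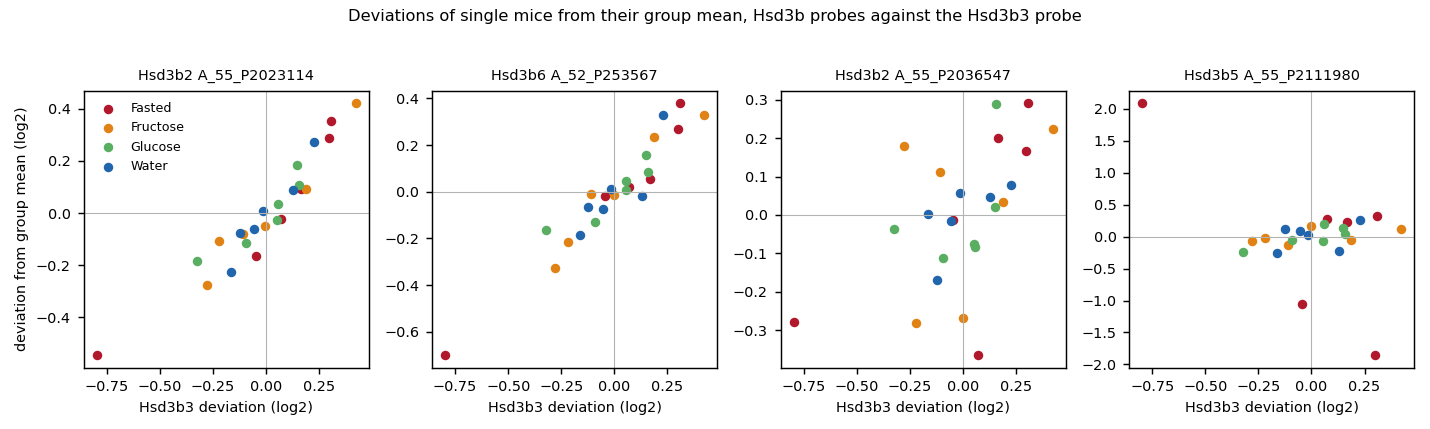
Deviation of each of 24 mice from its group mean (log2) for Hsd3b2 A_55_P2023114, Hsd3b6, Hsd3b2 A_55_P2036547 and Hsd3b5 (y axes), against that of Hsd3b3 (x axes), with fasted mice and fed mice on fructose, glucose or water by colour. The left 2 panels follow a line, with r of 0.948 and 0.922 in fed mice and 0.957 and 0.984 in fasted mice. The right 2 panels are more scattered, with r of 0.414 and 0.496 in fed mice.

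Hsd3b5 followed its neighbours less closely. In fed mice it correlated with Hsd3b2 A_55_P2023114 at r = 0.555 (rho = 0.585, adjusted permutation p = 0.162 and 0.180), with Hsd3b6 at r = 0.532 (rho = 0.503, adjusted permutation p = 0.167 and 0.205) and with Hsd3b3 at r = 0.496, and none of these passed the adjustment. In fasted mice these correlations were below 0, at -0.615, -0.705 and -0.719, which also did not pass. Without fasted mouse 2, which was left out after its values were seen, they lay near 0, at -0.0041, -0.060 and -0.021 over 5 mice. Fasted mouse 2 had the highest Hsd3b5 level of the fasted mice (1.88) and their lowest levels of Hsd3b2 A_55_P2023114 (0.97), Hsd3b3 (-0.03), Hsd3b6 (-1.89), Akr1c6 (7.75) and Srd5a1 A_51_P420415 (2.91). Fasted mice 1 and 3 had the lowest Hsd3b5 levels, -1.26 and -2.05, and mice 4, 5 and 6 lay at 0.13, 0.07 and 0.02. The fasted SD of Hsd3b5, 1.35, exceeded that of 99.7% of kept probes, while its SD on water, 0.21, exceeded that of 56.4%.

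Hsd17b2 also varied with Hsd3b genes over the fed mice by rank. It correlated with Hsd3b3 at r = 0.715 (adjusted permutation p = 0.101) and rho = 0.820 (adjusted permutation p = 0.00702). With Hsd3b2 A_55_P2023114 it had r = 0.669 (adjusted permutation p = 0.147) and rho = 0.806 (adjusted permutation p = 0.00588), and with Hsd3b6 r = 0.656 (adjusted permutation p = 0.167) and rho = 0.783 (adjusted permutation p = 0.0125). For these 3 pairs rho passed the adjustment and r did not. With the Hsd3b2 probes A_55_P2036547 and A_55_P2132812, r was -0.027 and -0.029 (rho = 0.024 and 0.036). Without the 2 mice farthest from the Hsd17b2 median, r was 0.783 with Hsd3b3, 0.719 with Hsd3b2 and 0.842 with Hsd3b6. Within single slides it ran from 0.325 to 0.959. In fasted mice the 3 r were below 0, at -0.713, -0.576 and -0.655, and none passed (adjusted p from 0.497 to 0.578, exact permutation). Without the 2 fasted mice farthest from the Hsd17b2 median, the 3 r were above 0, at 0.707, 0.721 and 0.716. Hsd3b5 and Hsd17b2 correlated over the fed mice at r = 0.573 (adjusted permutation p = 0.0184) and rho = 0.744 (adjusted permutation p = 0.00702). Their r was 0.606 without the 2 mice farthest from the Hsd17b2 median and 0.462 with slide means removed. Within slides 1, 2 and 3 it was 0.404, 0.747 and 0.155. In fasted mice r was 0.848 (exact permutation p = 0.0361, adjusted p = 0.436) and 0.179 without the 2 mice farthest from the Hsd17b2 median. The number of probes above background correlated with Hsd17b2 at 0.843 and with Hsd3b5 at 0.646 over the fasted mice, and at -0.15 and -0.50 over the fed mice, and its part was not tested. Cyp17a1 and Hsd11b1 correlated at r = -0.665 over the fed mice (adjusted permutation p = 0.0441, rho = -0.701 with adjusted permutation p = 0.0604). Their r was -0.587 without the 2 mice farthest from the Cyp17a1 median, and -0.877, -0.534 and -0.801 within slides 1, 2 and 3. In the 6 fasted mice r was -0.01 and rho -0.429, and neither passed (exact permutation p = 0.999 and 0.419).

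Over all 24 arrays, with group means removed, Cyp2c70, a P450 of the mouse liver, was the gene whose deviations were most like those of Hsd3b5, at r = 0.848 among 36161 probes. It was followed by Lemd2 at 0.824, Bmper at 0.823, Rpap2 at 0.819 and B9d2 at 0.800. Anp32e at -0.832, Chdh at -0.831 and Nagk at -0.825 were the least alike. The 6 fasted mice carry most of this likeness: over the 18 fed mice r was 0.437 for Cyp2c70, 0.318 for Lemd2, -0.02 for Bmper, 0.07 for Rpap2 and -0.08 for B9d2. Among the genes most like Cyp17a1 were Pip5k1a at 0.886 and Idh3a at 0.841. Over the fed mice r was 0.143 for Pip5k1a and 0.187 for Idh3a.

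Around the members, 6 lists of related genes were read, each gene by its brightest probe, beside 20.6% of all genes higher and 21.8% lower in fasted mice. All 6 lists were chosen with earlier results of these data known, and the genes named are called ones with the largest change. Their p-values in fasted mice therefore describe the chosen genes and are no independent test of a list. Of 24 other steroid enzymes measured, 7 rose and 11 fell in fasted mice. Hsd17b10, a mitochondrial dehydrogenase of steroids and fatty acids, rose 3.39-fold (1.76 ± 0.08, limma adjusted p = 3.05e-13). Akr1c14, which reduces 3-ketosteroids, fell 3.92-fold (-1.97 ± 0.11, adjusted p = 4.29e-12), and Cyp21a1, the adrenal hydroxylase, fell 2.53-fold (-1.34 ± 0.29, adjusted p = 0.000672) on its brighter probe and differed by -0.33 on the other. Of the 5 adrenal or gonadal markers measured, Cyp21a1 among them, 3 were lower in the same mice, and their part was not tested. Akr1c21 was not well above background on any fasted array and was at least 4.36-fold lower there than on water, each fasted array being raised to the dimmest signal that passed on it (adjusted p = 1.49e-08).

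Of 8 cofactor and redox partners, 4 rose and 3 fell in fasted mice. Por, the reductase that feeds electrons to Cyp17a1 and other P450s, rose 2.61-fold (1.38 ± 0.09, limma adjusted p = 6.22e-11). H6pd, which makes the NADPH used by Hsd11b1, rose 1.53-fold (0.62 ± 0.09, adjusted p = 8.78e-06). Cyb5b fell 2.70-fold (-1.43 ± 0.10, adjusted p = 5.53e-11) and Cyb5r3 2.00-fold (-0.997 ± 0.094, adjusted p = 1.25e-08). The 3 probes of Cyb5r3 ranged from -1.10 to 0.013, so the fall was not seen on every probe. Both genes are parts of cytochrome b5 electron transfer.

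Of 12 genes of steroid conjugation, binding and reception, 2 rose and 8 fell in fasted mice. Sult1e1, the estrogen sulfotransferase, rose 10.08-fold (3.33 ± 0.41, limma adjusted p = 6.1e-07). The mineralocorticoid receptor Nr3c2 fell 2.75-fold (adjusted p = 1.39e-05) and the glucuronosyltransferase Ugt2b1 2.28-fold (adjusted p = 6.57e-08).

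Hsd3b5 is counted among male-biased liver genes, whose sex difference depends on growth hormone. Of 21 other male-biased genes, 3 rose and 11 fell in fasted mice, with a median difference of -0.26. Nudt7 fell 5.45-fold, Slco1a1 4.13-fold, Selenbp2 3.15-fold and Egfr 2.53-fold (limma adjusted p from 3.05e-14 to 0.000358). The 4 Egfr probes ranged from -1.67 to -0.16. Of 15 female-biased genes, 10 rose and 1 fell, with a median of 0.77. Cux2, a repressor of male-biased genes in the female liver, rose 7.31-fold, with 2 of 6 arrays on water above background, Cyp2b9 5.17-fold and Tox 4.52-fold (limma adjusted p from 1.36e-10 to 5.95e-05). All mice were male, so no sex difference was measured, and these lists were chosen with earlier results of these data known.

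Of 11 genes of growth hormone signalling, 2 rose and 5 fell in fasted mice. Onecut1, a transcription factor of the liver, fell 12.6-fold (-3.65 ± 0.50, limma adjusted p = 2.9e-06), and the growth hormone targets Socs2 and Cish fell 5.07-fold (adjusted p = 0.000789) and 3.21-fold (adjusted p = 0.0298). The Cish call was lost without 4 of the 24 arrays in turn, with adjusted p up to 0.0888. Igfals, which carries circulating IGF1, fell 2.19-fold (adjusted p = 6.25e-08).

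**Figure D5:**
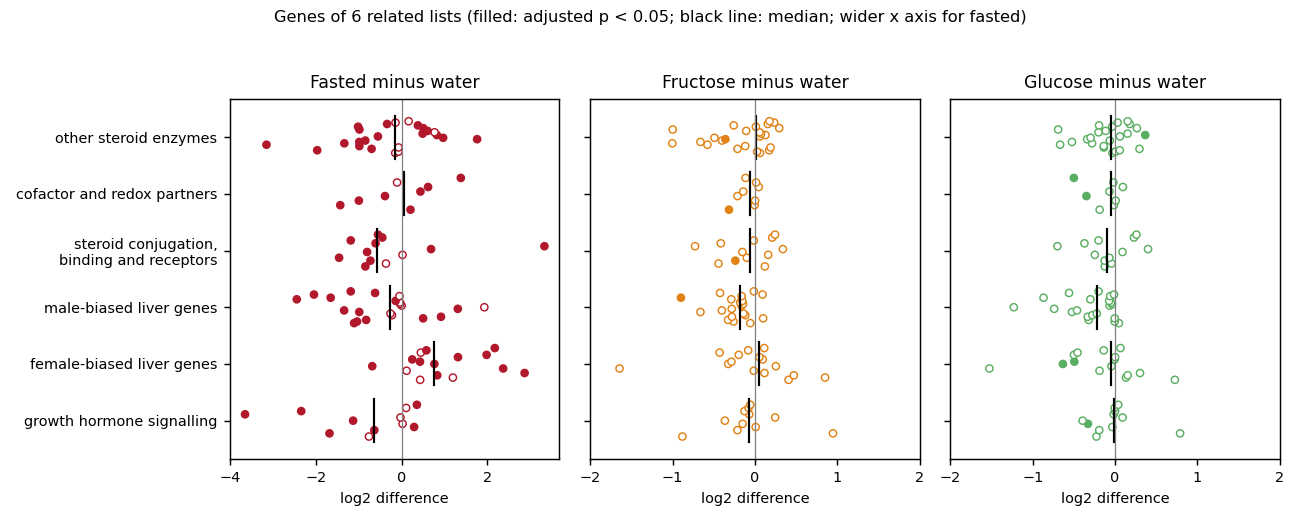
Log2 difference from fed mice on water (x axis) of the genes of 6 related lists (rows), in fasted mice and in fed mice on fructose or glucose (panels, n = 6 per group). Each point is a gene, filled at an adjusted p under 0.05, and the black line is the list's median. In fasted mice the medians are 0.77 for female-biased and -0.26 for male-biased genes, and the sugar panels, on a narrower axis, hold few filled points.

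With the sugars, the lists are set beside 0.488% of all genes higher and 0.438% lower with fructose and 0.413% and 0.421% with glucose. With fructose, 1 of 24 other steroid enzymes, 1 of 8 cofactor partners, 1 of 12 conjugation genes and 1 of 21 male-biased genes were lower. With glucose, 1 of 24 other steroid enzymes was higher. Lower were 2 of 8 cofactor partners, 2 of 15 female-biased and 1 of 11 growth hormone genes. The lists were chosen with earlier results known, so these counts are no test of a list. With fructose, Hsd17b10 (-0.36, limma adjusted p = 0.0446), Cyb5a (-0.31, adjusted p = 0.0465), Nr3c1, the glucocorticoid receptor (-0.24, adjusted p = 0.0458), and Selenbp2 (-0.90, adjusted p = 0.0460) fell. With glucose, Hsd17b13 rose (0.37, limma adjusted p = 0.0403), and Por (-0.50, adjusted p = 0.00819), Fdx1 (-0.35, adjusted p = 0.0235), Cyp3a16 (-0.63, adjusted p = 0.0411), Cyp3a41a (-0.50, adjusted p = 0.0277) and Igf1 (-0.33, adjusted p = 0.0123) fell. Por and Igf1 with glucose passed with any 1 of the 24 arrays left out. The other 8 lost the call without at least 5 of the arrays in turn, with adjusted p up to between 0.0669 and 0.123. Of 10 other settings of the processing or the fit, Por passed in all 10. Igf1 (adjusted p = 0.0927) and Fdx1 (adjusted p = 0.0749) lost the limma call with arrays centred on the median. Hsd17b10 passed in 7 of the 10, Hsd17b13, Nr3c1, Selenbp2 and Cyp3a41a in 6, Cyp3a16 in 5 and Cyb5a in 4, with limma adjusted p up to between 0.0777 and 0.216.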

How the data were processed

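Liver RNA of 24 mice was hybridised to 1-colour Agilent arrays, each mouse on its own array. The deposited intensity is the processed signal of Feature Extraction 10.10.1.1, background-subtracted within the array and not scaled between arrays, per the file headers. The authors also deposited a table of log2 values, whose normalization is not given in the sources used here, and it served as an alternative. Control spots and flagged spots were left out, log2 signals were centred on each array's 75th percentile, and probes well above background on at least 6 of 24 arrays were kept. The 4 group means were fitted in limma 3.58.1 (R 4.3.3), with Benjamini-Hochberg adjustment over all 36231 kept probes. The spread of a probe was taken as equal in the 4 groups, so its SE can understate the spread of a group that varies more. Intervals cover 95%. Gene names come from the array design and, for list genes, from RefSeq (GRCm38.p6): an accession matched for 32994 probes, a symbol for 10224 and a synonym for 523, while 12864 carry the design's own name. In data simulated for glucose against water over 36231 probes, 41.8% of changes of 0.5 log2 were recovered and 89.6% of changes of 1. The simulated noise was Gaussian, with the same SD for a probe in all 4 groups. These shares therefore do not carry over to probes whose spread differs between groups, such as Hsd3b5 and Cyp17a1.

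The members and lists were chosen with earlier results of these data known. From each list, up to 4 genes per comparison were named, called ones with the largest change first, and for likeness the 5 highest and 3 lowest genes for Hsd3b5 and the 3 highest for Cyp17a1. Of the genes so chosen, 3 are not reported here. Array numbers limit the precision. Each of the 3 slides holds 2 arrays of every group. Mice were treated as unpaired. Deviations of same-numbered arrays of different groups correlated at 0.03 on average (-0.15 to 0.21), with 9 of 36 pairs above 0.1. Differently numbered arrays correlated at -0.006 on average (-0.22 to 0.21), with 22 of 180 pairs above 0.1.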

Additional observations from a re-analysis of the deposited data

Results flagged for a closer look

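In each of the 60 sets of 6 mice (15 probes in 4 groups), the gap between an extreme mouse and its nearest neighbour was set against the range of the set. In 9 sets that share exceeded Dixon's 95% limit for 6 samples, which about 1 in 20 independent sets exceed by chance. The sets share mice and hold probes that vary together, so a single mouse can be flagged several times. The count is therefore not read as an excess. Fasted mouse 2 stood low for Akr1c6 at a log2 level of 7.75, for Hsd3b3 at -0.030 and for Hsd3b6 at -1.89. Fasted mouse 6 stood low for Akr1d1 A_66_P114758 at 1.85, and fasted mouse 4 stood high for Hsd11b1 at 6.94. Hsd3b2 probe A_55_P2036547 had a high mouse at 3.37 with glucose and a low mouse at 3.06 with water. Water mouse 2 stood low for Srd5a1 probes A_52_P562612 at -0.95 and A_52_P577084 at -1.22. No member moved one way in all mice of 1 treatment and the other way in all mice of another.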

How the results depend on the processing

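The members kept their direction of difference between fasted mice and mice on water in every setting tried, with 2 exceptions among the uncalled: Akr1d1 A_66_P113096 (-0.35 to 0.21) and Hsd3b2 A_55_P2132812 (-0.25 to 0.08). Hsd3b5 ranged from -6.33 to -4.64, with -4.64 within slide 2. With 1 array left out, 11 to 13 member probes were called in fasted mice, and 0 in each sugar comparison. Over the whole array, leaving out 1 array gave 14227 to 15362 calls with fasting (15241 with all arrays), 94 to 607 with fructose (320), 153 to 460 with glucose (294) and 0 to 2 between the sugars (0). The fructose count moved by over 1.5 times without fasted mouse 1 (205) or 2 (607), fructose mouse 1 (113), 3 (131), 4 (549) or 6 (110), glucose mouse 4 (205) or 5 (208), or water mouse 1 (191), 2 (147), 4 (94), 5 (200) or 6 (124). The glucose count did so without fasted mouse 2 (460), glucose mouse 1 (153), 2 (172) or 6 (191), or water mouse 4 (161) or 5 (171). Between the sugars, 1 probe was called without water mouse 3 and 2 without glucose mouse 3. Within slides 1, 2 and 3, fasting gave 6010, 5786 and 5874 calls, and each sugar 0. Cish differed by 0.076 within slide 2, against its fall elsewhere. For fructose the count was 576 with normexp and quantile normalization, 498 in the authors' table, 124 (92 higher, 32 lower) with median centring against 179 higher and 141 lower, 109 unfiltered, 580 with array weights and 92 with only the 2 groups. For glucose it was 511 with normexp, 144 (93 higher, 51 lower) with median centring against 154 higher and 140 lower, 178 unfiltered, 735 with array weights and 453 with only the 2 groups. Between the sugars it was 5 with normexp and 7 with array weights. With the replicate number as a block there were 15173 calls with fasting, 268 with fructose, 270 with glucose and 0 between the sugars, and 12, 0, 0 and 0 member probes. The likeness of Cyp2c70 to Hsd3b5 was 0.597 by Spearman's rho and 0.437 without the fasted mice. The cause of these shifts was not tested. Depth is not counted on arrays, and all member probes lay above background.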
